A study of Mus musculus with 15 samples.

Results

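Contactins and the L1 family are immunoglobulin superfamily adhesion molecules that neurons place on growing axons. The group described here holds 10 genes, the contactins *Cntn1*, *Cntn2*, *Cntn3*, *Cntn4*, *Cntn5*, and *Cntn6* and the L1 family members *L1cam*, *Nrcam*, *Chl1*, and *Nfasc*. The genes were listed by name and looked up by their Ensembl identifiers, and all 10 were found among the 19475 genes in the deposited table. All 10 also passed the filter for testing, a mean normalized read count of at least 5 over the embryos.

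Contactins lack a transmembrane segment and are held on the outer membrane by a glycosylphosphatidylinositol anchor, so that they signal through partners such as contactin-associated proteins, receptor tyrosine phosphatases, and L1 family proteins. The L1 family proteins cross the membrane, and their cytoplasmic tails bind ankyrins, which tie them to the spectrin cytoskeleton. In the developing cortex, these molecules are known for axon outgrowth, bundling, and guidance. TBR1 is a T-box transcription factor of early-born glutamatergic neurons of the cortex, including the layer 6 neurons whose axons leave the cortex for the thalamus, and Cntn2 (also known as TAG-1) marks early axons that leave the cortex.

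RNA-Seq was performed on 15 mouse embryos of the C57BL/6J strain at E16.5. The 5 WT embryos were compared with 5 heterozygous embryos (*Tbr1* +/K228E) and 5 homozygous embryos (*Tbr1* K228E/K228E), with 3 females and 2 males for each genotype. The mutant mice carry the K228E change in exon 1 of *Tbr1* in every cell from the germline, after removal of the selection cassette with a protamine-Cre line, and homozygotes are not found among older pups. The RNA came from forebrain according to the methods of the study and from brain or whole brain according to the labels, and the labels do not say whether littermates were used.

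The table gives read counts per gene divided by size factors, here called normalized read counts, and they summed to 30.5 M to 31.8 M per embryo, where M stands for megareads. The depth of each library before scaling is unknown. No pair of embryos had identical values, and embryos of a genotype correlated with an r of 0.977 to 0.987 across genes. *Tbr1* itself, which carries the mutation, had mean normalized read counts of 3537 ± 1049 in WT, 6269 ± 1532 in *Tbr1* +/K228E, and 11366 ± 3160 in *Tbr1* K228E/K228E embryos (SD, n = 5 for each). The homozygous and WT values did not overlap, and the log2 fold change was 1.69 (adjusted p = 0.00437 with limma). The point change itself cannot be read from values per gene. All 7 forebrain markers used here were detected in every genotype. Hox genes, which mark hindbrain and spinal cord, were uneven: their summed normalized read count was 4.80 to 3275 in WT, 3.66 to 3963 in *Tbr1* +/K228E, and 4.67 to 575 in *Tbr1* K228E/K228E embryos. WT embryo 4 combined a summed Hox count of 3275 with the lowest forebrain marker score of the 15 embryos, and it is named below where it moves a result.

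The 10 genes spanned a wide range of abundance in WT embryos. Levels of different genes are compared here as normalized read counts per kb of annotated exon. *L1cam* was highest, at 2079 ± 147 per kb (SD, n = 5), followed by *Chl1* at 1734 ± 265 and *Cntn2* at 1498 ± 368. *Nfasc* (705 ± 131), *Nrcam* (593 ± 40.9), and *Cntn1* (401 ± 95.9) formed the middle of the order, again per kb. *Cntn5* (111 ± 8.95), *Cntn4* (96.6 ± 19.5), *Cntn6* (84.2 ± 23.5), and *Cntn3* (69.0 ± 8.89) were lowest on the same scale. Neighbors in this order overlapped between embryos except at 3 places, between *Cntn2* and *Nfasc*, between *Nrcam* and *Cntn1*, and between *Cntn1* and *Cntn5*. Dividing by the longest coding transcript in place of all exons put *Nrcam* above *Nfasc* and *Cntn5* below *Cntn4* and *Cntn6*, so that the order of these genes depends on the length that is used. Of the 6 contactins, *Cntn2* was thus the most abundant by a wide margin, and 4 were low.

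**Figure D1:**
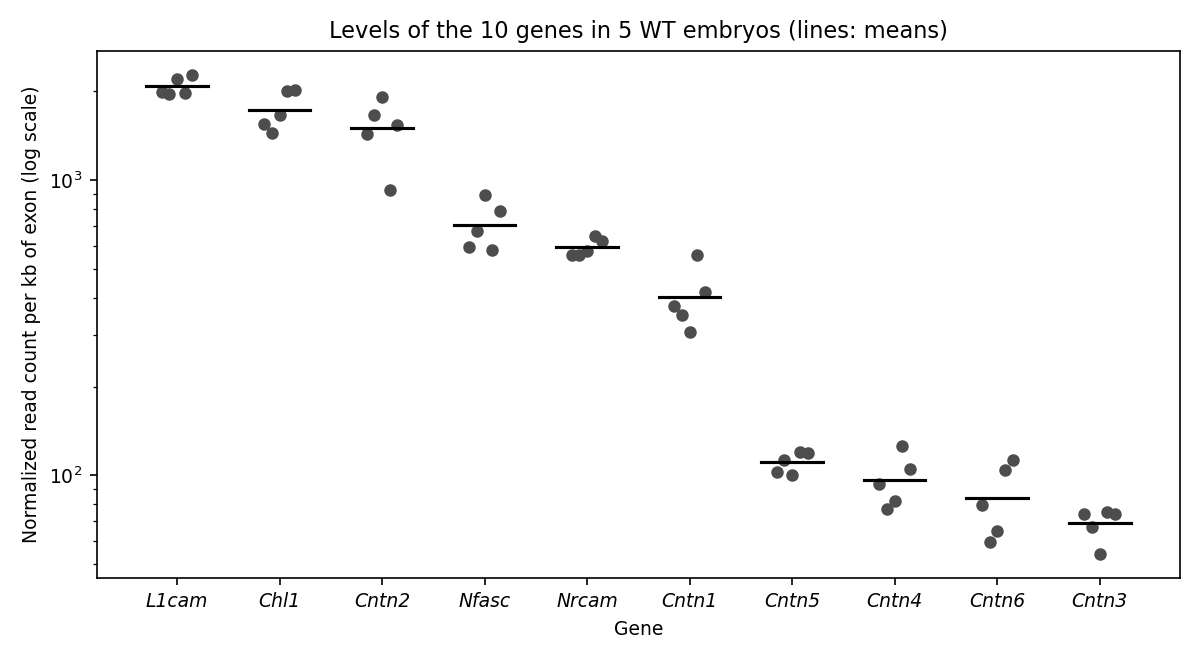
Normalized read count per kb of exon (log scale) of the 10 genes in the 5 WT embryos, with 1 dot per embryo and a line at each mean. *L1cam*, *Chl1*, and *Cntn2* lie highest, with means of 2079, 1734, and 1498, and a gap separates *Cntn1* (lowest embryo 307) from *Cntn5* (highest embryo 120).

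The genes lie on 6 chromosomes (GRCm38, GENCODE M21), and several lie close together. *Cntn2* (chr1:132509427-132543256) and *Nfasc* (chr1:132564690-132741797), both on the minus strand, are separated by 21.4 kb. *Cntn3* (chr6:102162655-102573101), *Chl1* (chr6:103510586-103750211), *Cntn6* (chr6:104492790-104863406), and *Cntn4* (chr6:105677660-106699310) fall within 4.54 Mb. *L1cam* (chrX:73853778-73896105) is the X-linked member. *Cntn1* (chr15:92051165-92341967), *Nrcam* (chr12:44328885-44601964), and *Cntn5* (chr9:9660891-10904775) stand alone. Of all 31-base words in their coding transcripts, 0 to 4.06% also occurred in transcripts of other genes on either strand, with the highest share in *Cntn5*.

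None of the 10 genes differed between genotypes past an adjusted p of 0.05 (limma on log2 of the normalized read count + 1, with the Benjamini–Hochberg correction over 16507 genes). In *Tbr1* +/K228E vs. WT embryos, 0 of 10 were called, against 0% of all genes, and 0 of 10 had an unadjusted p below 0.05, against 1.79% (295 genes). In *Tbr1* K228E/K228E vs. WT embryos, 0 of 10 were called, against 0.127% (21 genes), and 0 of 10 had an unadjusted p below 0.05, against 3.23% (534 genes). In *Tbr1* K228E/K228E vs. *Tbr1* +/K228E embryos, 0 of 10 were called, against 0.0788% (13 genes), and 0 of 10 had an unadjusted p below 0.05, against 3.3% (544 genes). A test over all 3 genotypes called 0 of 10, against 0.0969% of all genes. With so few genes called in all, a count of 0 among 10 is near the background and no result about these genes.

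Every gene of the group overlapped between genotypes in each of the 3 comparisons. The share of all genes whose values did not overlap was 0.26% in *Tbr1* +/K228E vs. WT, 0.594% in *Tbr1* K228E/K228E vs. WT, and 0.878% in the comparison of both mutants. The median log2 fold change of the 10 genes was -0.02, 0.03, and 0.06 in these comparisons, and the median of all genes tested was 0 in each. The *Tbr1* K228E/K228E embryos serve in the last 2 comparisons and the WT embryos in the first 2. In these bulk samples, fewer cells that express a gene and less RNA per cell cannot be told apart.

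**Figure D2:**
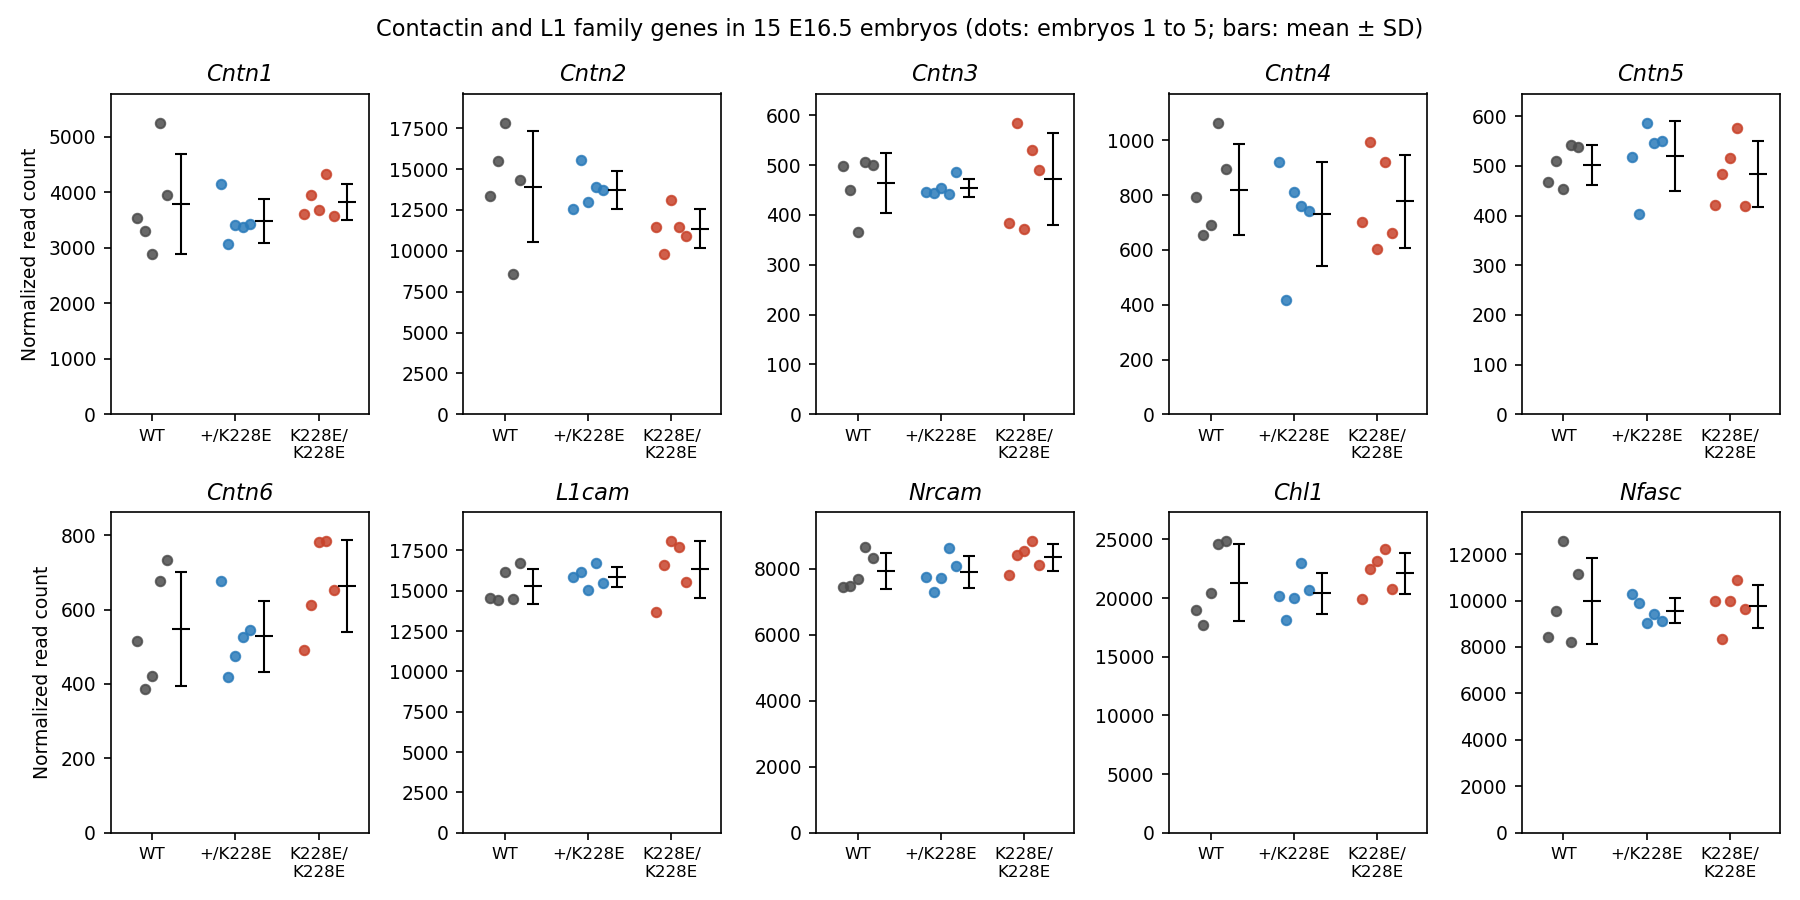
Normalized read counts of the 10 genes in each embryo (dots, embryos 1 to 5 from left to right) by genotype, with mean ± SD beside the dots and each vertical axis starting at 0. The genotypes overlap in every panel. In the *Cntn2* panel, the homozygous embryos range from 9808 to 13119, and WT embryo 4 lies below them at 8589.

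*Cntn2* encodes the contactin TAG-1, which is found on early axons and later pairs with Cntnap2 beside the nodes of Ranvier. Its normalized read counts were 13378, 15514, 17842, 8589, and 14345 in WT embryos 1 to 5. They were 12572, 15579, 12964, 13900, and 13723 in *Tbr1* +/K228E embryos and 11472, 9808, 13119, 11452, and 10887 in *Tbr1* K228E/K228E embryos. Of the homozygous embryos, 4 of 5 were below every heterozygous embryo, and all 5 were below every WT embryo other than embryo 4. The means were 13934 ± 3421, 13748 ± 1159, and 11348 ± 1199 (SD, n = 5), so that the WT group had the largest spread.

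The log2 fold change of *Cntn2* in *Tbr1* K228E/K228E vs. WT embryos was -0.26 (95% confidence interval -0.57 to 0.05), with an adjusted p of 1 in limma and p = 0.19 in a two-sided exact permutation test. Against *Tbr1* +/K228E embryos, it was -0.28 (-0.59 to 0.03), with an adjusted p of 0.996 in limma and p = 0.0238 in the exact permutation test. This was the only exact p below 0.05 among the 30 computed for the 10 genes, and it was not adjusted. In *Tbr1* +/K228E vs. WT embryos, the log2 fold change of *Cntn2* was 0.02 (-0.29 to 0.33). Its difference between homozygous and WT embryos therefore did not exceed the spread between embryos in the fit of genotype alone.

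The estimate for *Cntn2* depended on single WT embryos. Without WT embryo 4, the log2 fold change in *Tbr1* K228E/K228E vs. WT embryos was -0.43 (95% confidence interval -0.62 to -0.23), with an adjusted p of 0.161 in limma. Without WT embryo 3, which had the highest value of 17842, it was -0.16 (-0.46 to 0.13). Without the 3 embryos whose Hox score was above 4 (WT embryos 1 and 4 and *Tbr1* +/K228E embryo 1), it was -0.49 (-0.69 to -0.29), with an adjusted p of 0.147 in limma. This cut was added after the data were seen. It removed WT embryo 4, with the lowest *Cntn2* value, and no homozygous embryo (highest Hox score 2.97).

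Forebrain marker genes varied between embryos together with *Cntn2*. The forebrain score, the mean log2(normalized read count + 1) of *Emx1*, *Emx2*, *Neurod6*, *Neurod2*, *Bcl11b*, *Sox5*, and *Fezf2*, ranged from 10.52 to 11.70 in WT, 11.12 to 11.62 in *Tbr1* +/K228E, and 10.94 to 11.68 in *Tbr1* K228E/K228E embryos. The lowest score, 10.52, was that of WT embryo 4. Over the 15 embryos, *Cntn2* followed the score with Pearson r = 0.81 (permutation p = 0.00036, adjusted 0.0024) and Spearman rho = 0.69 (permutation p = 0.00619, adjusted 0.0185). After removal of the genotype means, r was 0.96. Without WT embryos 3 and 4, whose scores were farthest from the median, the pooled r was 0.58, so that it rests in part on those embryos.

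When the forebrain score was added to the model as a covariate, a choice made after these values were seen, *Cntn2* was called lower in homozygous than in WT embryos. Its log2 fold change was -0.33 (95% confidence interval -0.43 to -0.24), with an adjusted p of 0.00323 in limma, and 43 genes or 0.26% of those tested were called in this model. Because the covariate was chosen after the data were seen, the p-values of this model are descriptive and not a planned test. *Cntn2* was the only one of the 10 genes that passed there, and it also passed the test over all 3 genotypes (adjusted p = 0.00744 in limma, against 0.26% of all genes). Against *Tbr1* +/K228E embryos, its log2 fold change in this model was -0.23 and did not pass (adjusted p = 0.0719 in limma). Without WT embryo 4, the model gave -0.38 vs. WT (adjusted p = 0.000295 in limma) and -0.24 vs. *Tbr1* +/K228E embryos (adjusted p = 0.00734 in limma). Leaving *Bcl11b*, *Sox5*, and *Fezf2* out of the score gave -0.27 (adjusted p = 0.00955 in limma) and leaving *Neurod6* out gave -0.37 (adjusted p = 0.00159 in limma), both vs. WT. Without *Neurod6* in the score, the difference from *Tbr1* +/K228E embryos also passed, at -0.27 (adjusted p = 0.0181 in limma). These versions of the score share genes and embryos, so their fits are not separate support. By contrast, the Hox score as a covariate gave -0.35 with an adjusted p of 1 in limma. In *Tbr1* +/K228E vs. WT embryos, the estimate of *Cntn2* with the forebrain score as a covariate was -0.10 (95% confidence interval -0.20 to 0.00). It was -0.14 without WT embryo 4 (-0.22 to -0.06), and neither passed (adjusted p = 1 and 0.999 in limma). The forebrain score itself was 11.21 ± 0.43 in WT, 11.36 ± 0.18 in heterozygous, and 11.30 ± 0.27 in homozygous embryos (SD, n = 5), with p = 0.714 for homozygous vs. WT embryos in a two-sided exact permutation test. Of its 7 genes, 1 (*Fezf2*) had an unadjusted p below 0.05 in that comparison, against 3.23% of all genes. A p that misses the threshold does not show that the score was the same in the genotypes. Neuron markers also moved with *Cntn2*, in the opposite direction. Against the mean log2 level of 10 neuron genes, which was 13.73 to 14.18 in WT, 13.57 to 13.99 in heterozygous, and 13.77 to 13.97 in homozygous embryos, *Cntn2* had a Pearson r of -0.74 (permutation p = 0.00178, adjusted 0.00712) and a Spearman rho of -0.69 (permutation p = 0.00546, adjusted 0.0185), with r = -0.55 without the 2 embryos farthest from the median. The neuron score was not used as a covariate. The part of tissue content in the *Cntn2* values was not tested beyond these fits.

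**Figure D3:**
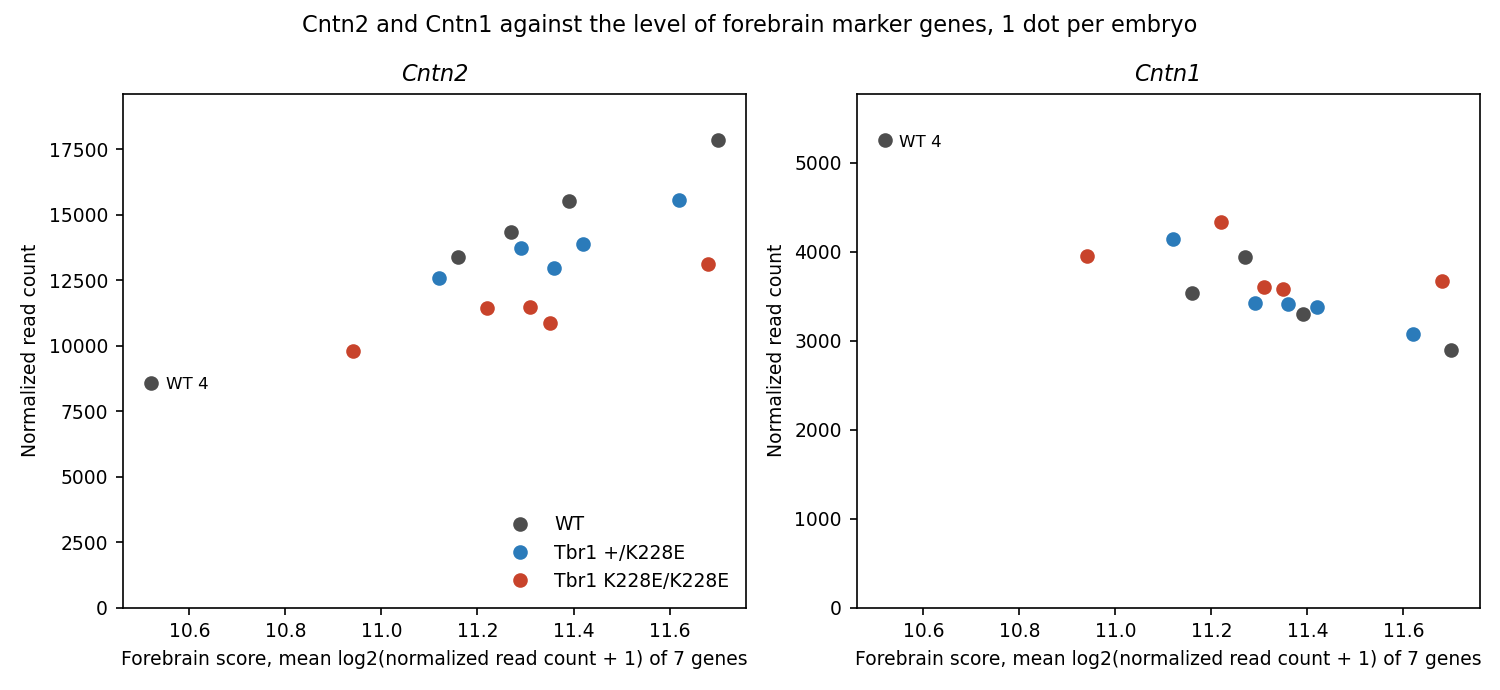
Normalized read counts of *Cntn2* (left) and *Cntn1* (right) against the forebrain score, with 1 dot per embryo and color by genotype. *Cntn2* rises with the score, with homozygous dots mostly below WT and heterozygous dots of a similar score, and WT embryo 4 (score 10.52) has the lowest *Cntn2* (8589) and the highest *Cntn1* (5253).

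The genes whose levels were most like *Cntn2* over the 15 embryos were *Nfib* (Pearson r = 0.929), *Neurod6* (0.912), *Dpy19l1* (0.911), *Sla* (0.909), and *Mpped1* (0.909), among 16507 genes tested. They were chosen by r and have no p. *Nfib* encodes a transcription factor of the nuclear factor I family, *Neurod6* a basic helix-loop-helix factor of cortical pyramidal neurons, and *Sla* a Src-like adaptor. Their r after removal of the genotype means was 0.939, 0.944, 0.944, 0.899, and 0.894, respectively. *Neurod6* had mean normalized read counts of 7492 ± 2728, 8419 ± 1819, and 6577 ± 1860 in the WT, heterozygous, and homozygous embryos (SD, n = 5), and *Sla* had 1929 ± 613, 2081 ± 433, and 1559 ± 403.

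*Cntn1* encodes the founding contactin, which binds tenascin-R and the phosphatase Ptprz1 and joins Cntnap1 and neurofascin at the junctions of axon and myelin. Its normalized read counts were 3539, 3297, 2893, 5253, and 3945 in WT, 4147, 3073, 3413, 3380, and 3427 in *Tbr1* +/K228E, and 3599, 3948, 3674, 4331, and 3580 in *Tbr1* K228E/K228E embryos. WT embryo 4 was above all others. For *Cntn1*, the log2 fold change was 0.04 in *Tbr1* K228E/K228E vs. WT (95% confidence interval -0.22 to 0.31), 0.14 vs. *Tbr1* +/K228E (-0.13 to 0.40), and -0.09 in *Tbr1* +/K228E vs. WT embryos (-0.36 to 0.17). *Cntn1* ran opposite to the forebrain score (Pearson r = -0.85, permutation p = 0.00018, adjusted 0.0018; Spearman rho = -0.79, permutation p = 0.0008, adjusted 0.004), and r was -0.59 without the 2 embryos farthest from the median. It rose with the neuron score (Pearson r = 0.87, permutation p = 8e-05, adjusted 0.0016; Spearman rho = 0.89, permutation p = 4e-05, adjusted 0.0008), with r = 0.75 without 2 embryos. *Cntn4* also ran opposite to the forebrain score (Pearson r = -0.78, Spearman rho = -0.85, adjusted permutation p = 0.00712 and 0.0012). *Cntn3* did so too (-0.68 and -0.80, adjusted permutation p = 0.0131 and 0.00373). Without the 2 embryos farthest from the median, their r was -0.83 and -0.72. *Nfasc* rose with the forebrain score by Pearson r (0.61, adjusted permutation p = 0.0365). By Spearman rho, *Nfasc* did not pass (0.41, adjusted permutation p = 0.221), and its r was 0.30 without the 2 embryos. *Cntn4*, *Cntn6*, *Nrcam*, and *Chl1* rose with the neuron score by Pearson r (0.73, 0.62, 0.57, and 0.57, adjusted permutation p = 0.0095 to 0.0438). *Cntn4* and *Cntn6* also passed by Spearman rho (0.61 and 0.69, adjusted permutation p = 0.0446 and 0.0185). *Nrcam* and *Chl1* did not pass by rho (0.59 and 0.45, adjusted permutation p = 0.0524 and 0.173). Without the 2 embryos farthest from the median, r was 0.36 for *Cntn4*, 0.58 for *Cntn6*, 0.30 for *Nrcam*, and 0.29 for *Chl1*.

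*Cntn6* encodes NB-3, which acts with Chl1 in orienting the apical dendrites of deep-layer pyramidal neurons. It had the largest positive estimate of the group. Its normalized read counts were 516, 387, 422, 676, and 734 in WT embryos, 676, 420, 476, 525, and 546 in *Tbr1* +/K228E embryos, and 491, 612, 781, 784, and 654 in *Tbr1* K228E/K228E embryos. The 2 highest values were in homozygous embryos 3 and 4, while homozygous embryo 1 was within the lower part of the WT range. The means were 547 ± 153, 529 ± 95.5, and 664 ± 123 (SD, n = 5). The log2 fold change was 0.30 in *Tbr1* K228E/K228E vs. WT (95% confidence interval -0.09 to 0.69; exact permutation p = 0.206) and 0.33 vs. *Tbr1* +/K228E embryos (-0.06 to 0.72; exact permutation p = 0.0952). These differences did not exceed the spread between embryos.

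*Cntn3*, *Cntn4*, and *Cntn5* encode the contactins BIG-1, BIG-2, and NB-2, of which Cntn4 is known for the guidance of olfactory axons. *Cntn3* ranged from 365 to 507 in WT, 442 to 486 in *Tbr1* +/K228E, and 371 to 585 in *Tbr1* K228E/K228E embryos, in normalized read counts. *Cntn4* ranged from 654 to 1065, 419 to 923, and 605 to 995, with the lowest value in *Tbr1* +/K228E embryo 2, without which the log2 fold change of *Cntn4* in *Tbr1* +/K228E vs. WT embryos was 0.00. *Cntn5* ranged from 454 to 542, 403 to 587, and 419 to 577. All of these ranges overlapped widely. The log2 fold changes in *Tbr1* K228E/K228E vs. WT embryos were 0.01 for *Cntn3*, -0.08 for *Cntn4*, and -0.06 for *Cntn5*, and those in *Tbr1* +/K228E vs. WT embryos were -0.02, -0.19, and 0.04. The interval for *Cntn4* in the latter comparison was -0.62 to 0.24, the widest of the group, so that a moderate change was not detectable in it.

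Standard errors of the log2 fold changes ran from 0.05 (*Nrcam*) to 0.10 (*Nfasc*) in the L1 family and from 0.11 (*Cntn5*) to 0.20 (*Cntn4*) in the contactins. The families were not cleanly apart in spread, as the WT SD was 18.6% of the mean for *Nfasc* and 8.07% for *Cntn5*. *Nrcam* encodes a receptor at nodes of Ranvier that also pairs with neuropilins in responses to semaphorins. Its normalized read counts were 7453, 7476, 7681, 8668, and 8326 in WT embryos, 7739, 7304, 7718, 8626, and 8093 in *Tbr1* +/K228E embryos, and 7809, 8406, 8547, 8834, and 8107 in *Tbr1* K228E/K228E embryos. In each genotype, the highest value was that of embryo 4, a male. The log2 fold change was 0.08 in *Tbr1* K228E/K228E vs. WT embryos (95% confidence interval -0.04 to 0.19) and 0.00 in *Tbr1* +/K228E vs. WT embryos (-0.12 to 0.11), the narrowest intervals of the group.

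*L1cam*, the founding member, is mutated in human L1 syndrome, with enlarged ventricles and defects of the corpus callosum and corticospinal tract. Its normalized read counts were 14573, 14429, 16148, 14493, and 16718 in WT, 15846, 16162, 15055, 16729, and 15510 in *Tbr1* +/K228E, and 13703, 16621, 18075, 17705, and 15552 in *Tbr1* K228E/K228E embryos. The lowest and the highest of the 15 values both fell in the homozygous group. For *L1cam*, the log2 fold change was 0.09 in *Tbr1* K228E/K228E vs. WT embryos (95% confidence interval -0.05 to 0.24) and 0.06 in *Tbr1* +/K228E vs. WT embryos (-0.09 to 0.20).

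*Chl1*, the close homolog of L1, guides the placement and dendrites of pyramidal neurons. Its normalized read counts were 19023, 17691, 20395, 24590, and 24852 in WT embryos, 20192, 18171, 20043, 23020, and 20673 in *Tbr1* +/K228E embryos, and 19885, 22475, 23201, 24226, and 20817 in *Tbr1* K228E/K228E embryos. In WT and in *Tbr1* +/K228E embryos, the 3 females were below the 2 males, and in *Tbr1* K228E/K228E embryos the sexes overlapped. *Nrcam* showed the same pattern in all genotypes, and females were also below males in WT embryos for *Cntn1*, *Cntn3*, *Cntn4*, *Cntn5*, and *Cntn6*. The share of all genes with such separation was not computed, so it is not read as a trait of *Chl1*. Homozygous vs. WT embryos had a log2 fold change of 0.06 for *Chl1* (95% confidence interval -0.13 to 0.26).

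*Nfasc* encodes neurofascin, whose isoforms assemble the axon initial segment, the nodes, and the flanking junctions with glia. The table sums isoforms to 1 value per gene, so that they are not told apart here. Normalized read counts of *Nfasc* were 8417, 9528, 12555, 8229, and 11158 in WT embryos, 10301, 9892, 9043, 9430, and 9120 in *Tbr1* +/K228E embryos, and 9960, 8344, 9987, 10892, and 9613 in *Tbr1* K228E/K228E embryos. The WT embryos again had the largest spread, which enclosed both mutant groups. The log2 fold change was -0.02 in *Tbr1* K228E/K228E vs. WT embryos (95% confidence interval -0.24 to 0.20).

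**Figure D4:**
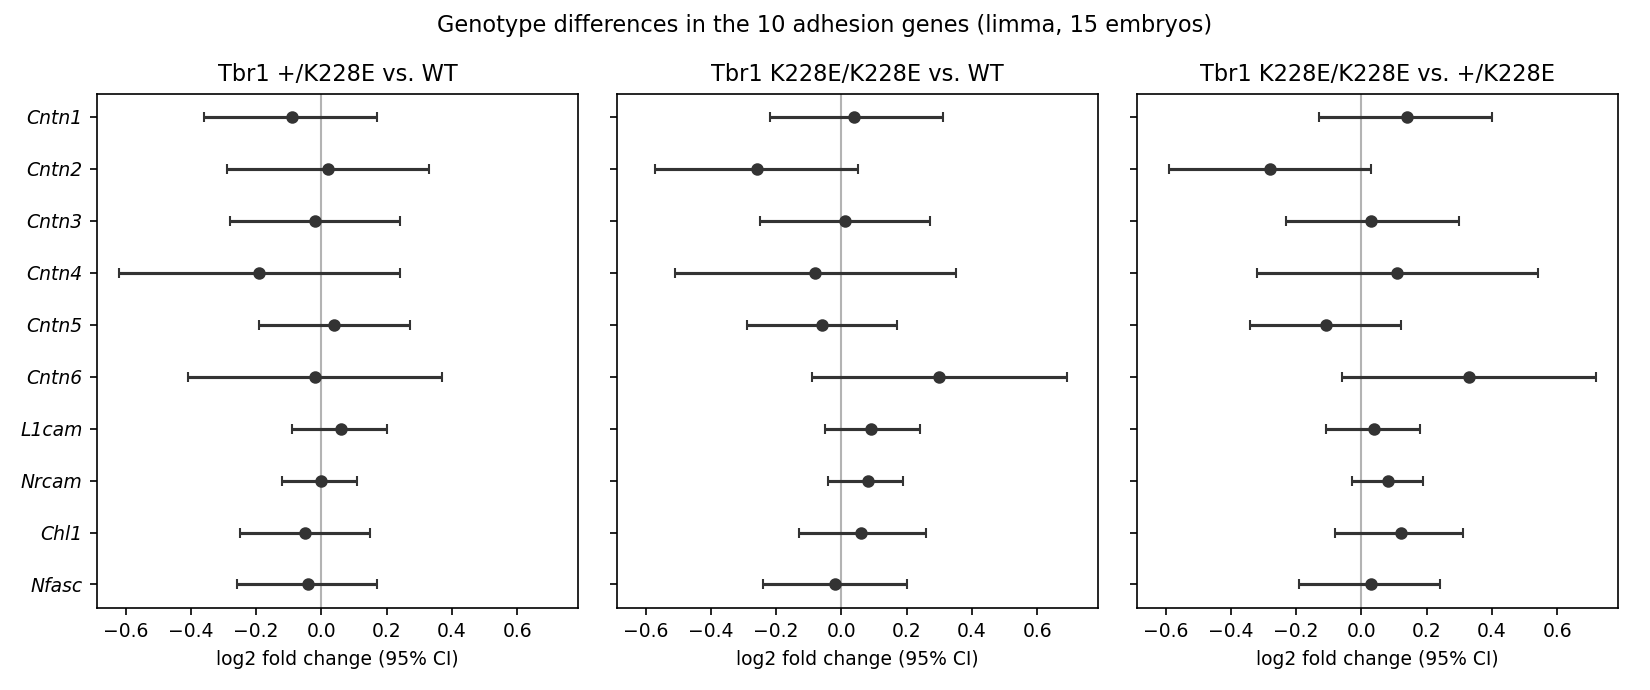
Log2 fold changes of the 10 genes in the 3 comparisons (points) with 95% confidence intervals from limma (bars); positive values are higher in the group named first. Every interval crosses 0, the *Cntn2* points at -0.26 and -0.28 and the *Cntn6* points at 0.30 and 0.33 lie farthest out in the comparisons with homozygous embryos, and the *Nrcam* intervals are the narrowest.

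The levels of several pairs of these genes were related from embryo to embryo. Of the 45 pairs, 7 had an adjusted permutation p below 0.05 by Pearson r and 8 by Spearman rho over the 15 embryos. The 7 pairs, or 15.6% of the 45, had an r of at least 0.66 in size, as did 4.93% of all pairs of the 16507 genes tested. This difference was not tested, and nothing particular to these genes is read from it. *Nrcam* and *Chl1* were the closest pair (Pearson r = 0.93, permutation p = 1e-05, adjusted 0.00045; Spearman rho = 0.90, permutation p = 2e-05, adjusted 0.0009), and this p is the smallest that the permutations can give. The r was 0.91 without the 2 embryos farthest from the median and 0.95 after removal of the genotype means. *Cntn6* rose with *Chl1* (Pearson r = 0.81, permutation p = 0.00052, adjusted 0.00776; Spearman rho = 0.85, permutation p = 0.00016, adjusted 0.0024). These 2 genes lie near each other on chromosome 6. *Cntn6* also rose with *Nrcam* on chromosome 12 (Pearson r = 0.77, adjusted permutation p = 0.0137) and *Cntn1* on chromosome 15 (0.74, adjusted permutation p = 0.00776). *Chl1* and *Cntn3*, both on chromosome 6, had a Pearson r of 0.30 (adjusted permutation p = 0.385). Any part of gene position or of sex in these relations was not tested, and sex was not removed from the values. *Cntn1* and *Cntn2* ran in opposite directions (Pearson r = -0.82, permutation p = 0.00022, adjusted 0.00495; Spearman rho = -0.79, permutation p = 0.0008, adjusted 0.0072), with r = -0.59 without the 2 embryos farthest from the median and -0.86 after removal of the genotype means. The nearby genes *Cntn2* and *Nfasc* had a Pearson r of 0.59 (permutation p = 0.0199, adjusted 0.0769) and a Spearman rho of 0.40 (permutation p = 0.139, adjusted 0.231), and r fell to 0.20 without 2 embryos.

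**Figure D5:**
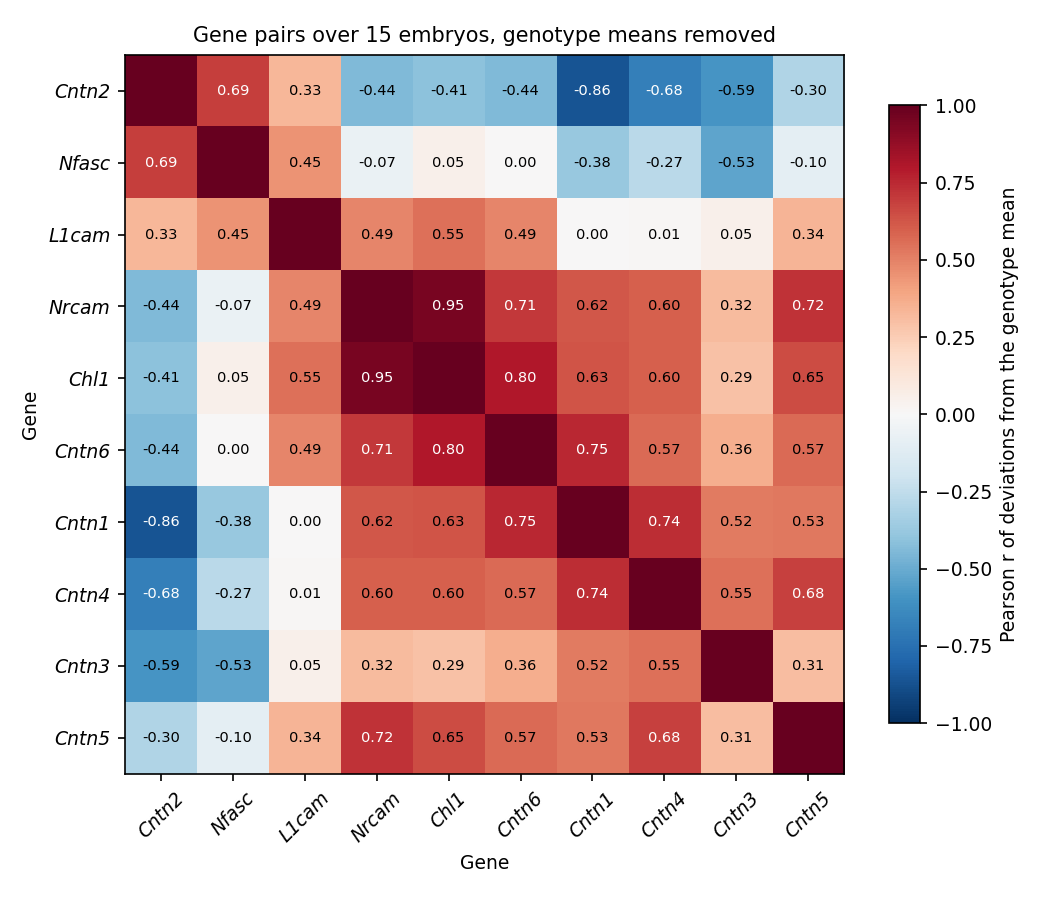
Pearson r of each pair of the 10 genes over the 15 embryos after removal of the genotype means (red, positive; blue, negative). *Nrcam*, *Chl1*, *Cntn6*, *Cntn1*, and *Cntn4* form a red block, with 0.95 for *Nrcam* and *Chl1*, and *Cntn2* is blue against them, down to -0.86 with *Cntn1*. *Cntn5* is also red against the block, from 0.53 with *Cntn1* to 0.72 with *Nrcam*, so that the block has no sharp edge.

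The genes were also compared with scores of other gene lists, each the mean log2(normalized read count + 1) of its genes. Of 30 relations of the 10 genes with Hox, meninges, and cell cycle scores, 8 had an adjusted p below 0.05 by Pearson r and 7 by Spearman rho. The share of all genes with such relations was not computed, so nothing particular to these genes is read from the counts. *Chl1* (Pearson r = -0.81, permutation p = 0.00016, adjusted 0.00315; Spearman rho = -0.81, permutation p = 0.00041, adjusted 0.0055), *Cntn1* (-0.81 and -0.80, adjusted permutation p = 0.00315 and 0.0055), and *Nrcam* (-0.78 and -0.84, adjusted permutation p = 0.00397 and 0.0033) were low where the cell cycle genes were high. The same held for *Cntn4* (-0.77 and -0.76, adjusted permutation p = 0.00397 and 0.00894) and *Cntn6* (-0.70 and -0.77, adjusted permutation p = 0.0201 and 0.00735). *Cntn3* was likewise low there (-0.67 and -0.65, adjusted permutation p = 0.0264 and 0.0476). *Cntn2* went with the cell cycle score (Pearson r = 0.72, permutation p = 0.00251, adjusted 0.0151; Spearman rho = 0.66, permutation p = 0.00955, adjusted 0.0476), although r was 0.41 without the 2 embryos farthest from the median. *L1cam* had its closest relation with the meninges score (Pearson r = -0.66, permutation p = 0.00703, adjusted 0.0264; Spearman rho = -0.60, permutation p = 0.021, adjusted 0.0769). The cell cycle score ranged from 9.82 to 10.65 in WT, 10.27 to 10.71 in *Tbr1* +/K228E, and 9.78 to 10.54 in *Tbr1* K228E/K228E embryos, and none of its 14 genes was called between genotypes. All values of an embryo come from 1 library, and the part of stage, dissection, or cell content in these relations was not tested.

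Because *L1cam* is X-linked, the sexes were compared in a model with genotype. The *L1cam* log2 fold change in 9 females vs. 6 males was -0.05 (95% confidence interval -0.17 to 0.08). Of the 10 genes, 8 had lower estimates in females, and 0 of 10 were called, against 0.0788% of all genes (13 genes). Unadjusted p-values below 0.05 were seen for 3 of 10, *Nrcam*, *Chl1*, and *Cntn6*, and for 11% of all genes (1822 genes). *Chl1* had a log2 fold change of -0.20 in females (95% confidence interval -0.33 to -0.07, adjusted p = 0.41 in limma). Its mean was 19036 in WT females and 24721 in WT males, 19469 and 21846 in *Tbr1* +/K228E females and males, and 21854 and 22522 in *Tbr1* K228E/K228E females and males. The difference between sexes in the effect of homozygous vs. WT called 0 of 10, against 0% of all genes. It had an unadjusted p below 0.05 for 1 of 10, *Chl1*, and for 6.46% of all genes (1066 genes). For the heterozygous effect, this difference is not given. With 2 males per genotype, WT embryo 4 is 1 of the 2 WT males.

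Partners of the contactins and L1 proteins were described from a list of 51 genes in 9 groups. With limma, none was called in any of the 3 comparisons, where 0%, 0.127%, and 0.0788% of all genes were called. In *Tbr1* K228E/K228E vs. WT embryos, 3 of the 51 had an unadjusted p below 0.05, namely *Tnr*, *Vcan*, and *Opcml*, against 3.23% of all genes. *Tnr*, which encodes tenascin-R, a matrix ligand of Cntn1, had mean normalized read counts of 2750 ± 237 in WT, 2577 ± 269 in *Tbr1* +/K228E, and 2295 ± 258 in *Tbr1* K228E/K228E embryos (SD, n = 5). Its log2 fold change in homozygous vs. WT embryos was -0.26 (95% confidence interval -0.44 to -0.08, adjusted p = 1 in limma). *Vcan*, which encodes the proteoglycan versican, had 10349 ± 1186, 9991 ± 1493, and 8412 ± 757, with a log2 fold change of -0.30 (-0.50 to -0.09, adjusted p = 1 in limma). The other 2 lowest p-values with a negative estimate were those of the adhesion molecule gene *Alcam* (-0.18) and the contactin-associated protein gene *Cntnap4* (-0.16).

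On the positive side, *Opcml*, an IgLON adhesion molecule, had 3061 ± 394, 3139 ± 138, and 3463 ± 207 normalized read counts in the WT, heterozygous, and homozygous embryos (SD, n = 5), with a log2 fold change of 0.18 in homozygous vs. WT embryos (95% confidence interval 0.03 to 0.34, adjusted p = 1 in limma). The next smallest p-values with a positive estimate were those of *Ptprz1*, *Cadm1*, and *Nrp1* (log2 fold changes of 0.14, 0.11, and 0.12), which encode a phosphatase that binds Cntn1, an adhesion molecule, and a semaphorin receptor. By group, the median log2 fold change in homozygous vs. WT embryos was -0.06 for 7 contactin-associated proteins, of which 6 had negative estimates. It was -0.01 for 6 ankyrins and spectrins, 0.00 for 3 receptor tyrosine phosphatases, -0.10 for 5 matrix ligands, and 0.04 for 11 other axonal immunoglobulin adhesion molecules. For 10 signalling and cytoskeletal partners, it was also -0.06, and 8 of them had negative estimates, as did 4 of the 5 matrix ligands. The remaining groups had -0.03 (3 APP family genes), -0.04 (3 neuropilin and semaphorin genes), and 0.00 (3 shedding proteases). The median of all genes was 0.

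A T-box site was looked for in front of the 10 genes. The letters searched, on both strands, were AGGTGTGA and its shorter parts GGTGTGA and GTGTGA, each of which contains the next, in the 250 bases before each RefSeq start site (GRCm38.p6). They occurred in 1.12%, 3.33%, and 12.3% of 32851 such windows of all genes and in 0 of the 16 windows of the 10 genes. This says only that these letters are not in these windows.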

How the data were processed

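RNA-Seq libraries of 15 embryos were prepared by the authors with a TruSeq RNA kit. The authors quantified transcripts with Salmon 0.11.2 (GRCm38), imported gene counts with tximport, and scaled them with DESeq2 1.22.2 in R 3.5.3, per the labels and methods. The deposited values are therefore a normalized signal, and whole reads could not be recovered, so that no count model was fitted. Of 19475 genes, 19452 matched GENCODE M21.

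Log2(value + 1) of 16507 genes with a mean of at least 5 was fitted with limma 3.58.1 in R 4.3.3 (lmFit, eBayes with a trend), all 15 embryos in 1 fit, with Benjamini–Hochberg adjustment. The fit was tested on simulated data. Single genes were compared by two-sided exact permutation (smallest p 0.00794). Correlations used 100000 permutations, adjusted over 30 relations with scores, 45 pairs, and 20 relations with the forebrain and neuron scores.

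The labels do not say that embryos came from separate litters, and p-values measure the spread between these embryos only. The members and lists were chosen with earlier results of these data known. Named genes are the 10 members, *Tbr1*, of the partners the 4 smallest p-values in each direction in homozygous vs. WT embryos, and the 5 genes closest to *Cntn2* by r. Part of the forebrain marker list is not reported here and was left out of the score. *Fezf2* was named after its value was seen. Alternatives were other pseudocounts (0.1 and 10), filters (none and 50), upper-quartile and quantile scaling, sex, replicate number or Hox score as a term, robust eBayes, the compared genotypes alone, and leaving out each embryo. Of the 5 alternatives added after the data were seen, 4 use a forebrain score and 1 leaves out embryos with a Hox score above 4.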

Additional observations from a re-analysis of the deposited data

Results flagged for a closer look

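In 1 of 30 groups of 5 embryos, an end value stood apart from the others. *Cntn3* in *Tbr1* +/K228E embryo 5 had a normalized read count of 486, while the other heterozygous embryos had 442 to 453, and the gap was 0.755 of the range of the group, above the critical value of 0.71. The group has the smallest spread of *Cntn3*, with an SD of 18.4, and the value lies within the range of WT embryos. Chance flags about 1 in 20 such groups.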

How the results depend on the processing

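No gene of the group was called in any comparison under the 11 alternatives that leave out no embryo, and the number called stayed at 0 without each embryo in turn, with a lowest adjusted p of 0.113 between the sexes and 0.161 between genotypes (limma). With a forebrain score as a covariate, added after the data were seen, 1 of 10 (*Cntn2*) was called in homozygous vs. WT embryos and over the 3 genotypes, with log2 fold changes of -0.33 for all 7 score genes, -0.27 for 4, -0.37 for 6 without *Neurod6*, and -0.38 without WT embryo 4. In the last 2 fits, 1 (*Cntn2*) was also called vs. heterozygous embryos (-0.27 and -0.24). The call of *Cntn2* therefore depends on this choice of covariate, which may itself differ between genotypes. It does not replace the planned result of 0 genes of the group called. Over these and the fits without each embryo, *Cntn2* in homozygous vs. WT embryos stayed negative, from -0.43 to -0.16 (-0.49 without high Hox scores), and *Cntn6* stayed positive, from 0.19 to 0.42. With the replicate block, *Cntn2* was at -0.26 in homozygous vs. WT embryos, and 0 of 10 members were called. Same-numbered deviations correlated by 0.0238 to 0.506 between WT and homozygous embryos (3 of 5 best with their own number). They correlated by -0.208 to 0.224 between WT and heterozygous embryos (1 of 5 best) and by -0.232 to 0.349 between the mutants (2 of 5 best). Embryo numbers follow sex in the same way in each genotype, so this check cannot tell pairing from sex. The labels do not say that numbers mark pairs, and the embryos were not treated as pairs.

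Direction changed for estimates of up to 0.11 in size, and the turned values reached -0.18. In heterozygous vs. WT embryos, *Cntn2* was at -0.06 with the Hox score, -0.10, -0.09, and -0.10 with the forebrain scores of 7, 4, and 6 genes, -0.14 with the score and without WT embryo 4, and -0.18 without embryos with a Hox score above 4. In the same order, *Cntn6* was at 0.01, 0.05, 0.04, 0.05, and 0.06 up to the fit without WT embryo 4. *Cntn3* was at 0.05, 0.04, and 0.05 with the forebrain scores and 0.07 without high Hox scores. *Nrcam* was at 0.01 with each forebrain score, 0.03 with the score and without WT embryo 4, and 0.02 without high Hox scores. With the score and without WT embryo 4, *Cntn1* was at 0.02 and *Chl1* at 0.00. In homozygous vs. WT embryos, *Cntn4* was at 0.01 with the Hox score and 0.04 with 6 score genes or without high Hox scores, and *Cntn3* was at -0.01 with the score and without WT embryo 4. In homozygous vs. heterozygous embryos, *Cntn3* was at -0.02 with 4 score genes and -0.01 with the score and without WT embryo 4.

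Leaving out each embryo gave ranges that cross or touch 0. In heterozygous vs. WT embryos, they were -0.18 to 0.03 (*Cntn1*), -0.15 to 0.12 (*Cntn2*), -0.11 to 0.01 (*Cntn3*), -0.29 to 0.00 (*Cntn4*), 0.00 to 0.13 (*Cntn5*), -0.14 to 0.09 (*Cntn6*), -0.04 to 0.03 (*Nrcam*), -0.12 to 0.01 (*Chl1*), and -0.11 to 0.04 (*Nfasc*). In homozygous vs. WT embryos, they were -0.05 to 0.17 (*Cntn1*), -0.07 to 0.09 (*Cntn3*), -0.18 to 0.02 (*Cntn4*), 0.00 to 0.12 (*Chl1*), and -0.08 to 0.07 (*Nfasc*). In homozygous vs. heterozygous embryos, they were -0.05 to 0.12 (*Cntn3*), -0.08 to 0.21 (*Cntn4*), 0.00 to 0.10 (*L1cam*), and -0.01 to 0.08 (*Nfasc*). The cause of these changes was not tested. With 5 embryos per genotype, differences smaller than the intervals given were not detectable.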
